A study of Mus musculus with 15 samples.

Results

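Mouse kidney tubule-like cells grown inside a gel of collagen I were compared with the same cells grown on a flat plate, gene by gene. The cells are induced renal tubular epithelial cells (iRECs), mouse fibroblasts turned into tubule-like epithelium by a set of introduced transcription factors that includes Pax8, Hnf4a and Emx2. The collagen I group holds 3 libraries of iRECs dispensed by hand into collagen I gel as a 3D culture, at passages 35, 48 and 53. The 2D group holds 3 libraries of plated iRECs at the same passages. Both groups grew for 7 days in renal epithelial growth medium and gave total RNA. All libraries come from 1 cell line, so p-values measure the spread between cultures of that line, not between animals. The series holds 15 libraries in 5 groups, the others being Matrigel, fibrin and cells dispensed by inkjet bioprinter in fibrin with collagen I, called printed here. The authors' deposited table of collagen I against 2D lists 27179 genes, and the 13886 with a base mean of 10 or more are described. The base mean is the mean normalized read count over the 6 libraries.

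The authors deposited 1 base mean and 1 log2 fold change per gene, so no value of a single library can be given and the depth per library is unknown. Each group's mean level was computed from the base mean and the fold change and is called the implied level. Fold changes were taken as shrunken by the authors' fit, so implied levels of the groups can lie closer together than their true means. Positive fold changes mean more RNA in collagen I, and ± gives the standard error deposited with them. Risen and fallen genes are those with a deposited adjusted p, from DESeq2, under 0.05. Base means just inside the limit ran from 10.01 to 10.08 over the 5 lowest members, and just outside it from 9.98 to 9.995 over 5 genes, in the authors' deposited table. In bulk RNA, fewer cells of a kind and less RNA per cell cannot be told apart.

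Collagen I is the main fibrillar collagen of connective tissue and is held by cells through integrins and discoidin domain receptors. A gel surrounds the cells with it, whereas cells on a plate have a free upper side. The prolyl hydroxylases that mark HIF for destruction need oxygen, so in low oxygen HIF accumulates and raises genes for glycolysis, for vessel growth and for collagen modification. The kidney tubule is known for a high oxygen demand.

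The cells were checked against markers of their label. All 8 markers of tubule epithelium were among the genes described, with summed implied levels of 125525 normalized reads in collagen I and 131740 in 2D. Single markers differed from that sum: 2 of the 8 fell and none rose. The most abundant had a base mean of 54513.5 out of 128632 for all 8. Of 6 proximal tubule markers, Lrp2, Cubn and Kap were measured, while Slc34a1, Slc5a2 and Aqp1 lay under the base mean limit. Fibroblast markers were low, with 2 of 6 over the limit and summed implied levels of 75.8 in collagen I and 281 in 2D. Among the introduced factors, Pax8 fell (log2 -0.66 ± 0.20, adjusted p = 0.016 by DESeq2 in the authors' deposited table). Emx2 at 0.25 ± 0.20 and Hnf4a at -0.12 ± 0.20 in the authors' deposited table did not pass. Introduced and endogenous transcripts of these factors cannot be told apart in these tables.

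Between collagen I and 2D, 1569 of the 13886 genes differed, 11.3%, in the authors' deposited table. There, 916 genes rose (6.60%) and 653 fell (4.70%). Of them 379 rose and 337 fell by a log2 value of 1 or more. Risen genes were the more abundant, with a median base mean of 1698 against 558 for fallen genes and 1230 for genes that were not called. From a base mean of 10000 up, 75 genes rose and 20 fell, whereas between 10 and 30 the numbers were 15 and 42. Nearly all called genes code for proteins, 897 of the risen and 626 of the fallen, but so do 12717 of all 13886 described genes. Of 552 long noncoding RNAs 8 rose and 15 fell, and of 64 small nucleolar RNAs none passed by DESeq2, with 1 at an unadjusted p under 0.05. When the Wald statistics were set against their own spread (an empirical null) in place of the theoretical one, 142 genes passed, 1.02%, of which 62 had risen and 80 had fallen. That spread was 1.58, wider than a standard normal, and with no values per library a library that stands apart, or differs in RNA quality, cannot be seen. The part of such a library in the p-values and fold changes was not tested. Of 60 gene lists with a called member, 52 had their count change by over 1.5 times under the empirical null.

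**Figure D1:**
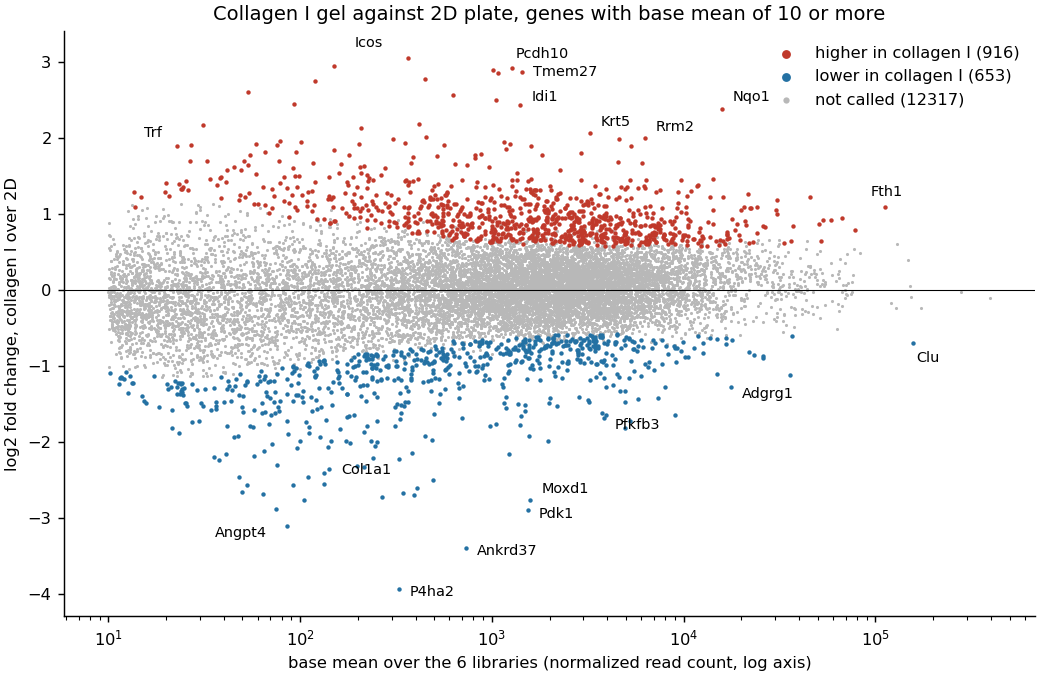
Log2 fold change of collagen I over 2D (vertical axis) against the base mean in normalized reads (horizontal log axis), 1 point per gene, red where the gene rose, blue where it fell and grey where it was not called. P4ha2, Ankrd37 and Angpt4 lie lowest at -3.94, -3.40 and -3.10, followed by Pdk1 at -2.90, and Icos lies highest at 3.06.

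Where called genes reached a base mean of 100, the 3 lowest fold changes belonged to P4ha2, Ankrd37 and Pdk1, all known to respond to HIF. P4ha2, the catalytic subunit of a collagen prolyl hydroxylase, had an implied level of 40.1 normalized reads in collagen I and 614 in 2D, from the authors' deposited table. Ankrd37, a small ankyrin repeat protein known as a direct HIF target, had implied levels of 127 in collagen I and 1339 in 2D. Pdk1, the kinase that keeps pyruvate out of the citrate cycle, had implied levels of 365 in collagen I and 2720 in 2D. All 3 genes were far lower in the gel. In the authors' deposited table the fall was 15.3-fold for P4ha2 (log2 -3.94 ± 0.36, adjusted p = 6.6e-25 by DESeq2). For Ankrd37 it was 10.5-fold (log2 -3.40 ± 0.25, adjusted p = 9.9e-38) and for Pdk1 7.46-fold (log2 -2.90 ± 0.28, adjusted p = 6.8e-22) in the authors' deposited table.

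Their promoters are shown because they carry the core of the sequence that HIF binds. Each runs from 250 bases before to 50 after the annotated start of the gene, 5′ to 3′ on the gene's strand, from RefSeq on GRCm38.p6. Capitals mark ACGTG or GCGTG on either strand, which may overlap each other. P4ha2 is at chr11:54100674-54100973 on the plus strand, Ankrd37 at chr8:45999801-46000100 on the minus strand and Pdk1 at chr2:71872974-71873273 on the plus strand. They hold 4, 4 and 2 matches.
P4ha2: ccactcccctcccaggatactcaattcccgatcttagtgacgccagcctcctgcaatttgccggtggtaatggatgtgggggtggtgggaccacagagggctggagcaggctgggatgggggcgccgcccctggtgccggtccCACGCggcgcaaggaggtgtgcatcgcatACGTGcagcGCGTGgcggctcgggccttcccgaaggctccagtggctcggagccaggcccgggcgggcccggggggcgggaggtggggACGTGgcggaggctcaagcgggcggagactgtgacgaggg
Ankrd37: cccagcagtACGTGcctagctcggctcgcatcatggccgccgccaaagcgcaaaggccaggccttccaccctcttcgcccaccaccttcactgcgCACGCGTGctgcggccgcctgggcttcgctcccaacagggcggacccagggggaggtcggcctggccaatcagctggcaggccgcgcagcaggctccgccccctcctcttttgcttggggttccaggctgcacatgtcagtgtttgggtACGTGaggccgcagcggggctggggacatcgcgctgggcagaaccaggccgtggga
Pdk1: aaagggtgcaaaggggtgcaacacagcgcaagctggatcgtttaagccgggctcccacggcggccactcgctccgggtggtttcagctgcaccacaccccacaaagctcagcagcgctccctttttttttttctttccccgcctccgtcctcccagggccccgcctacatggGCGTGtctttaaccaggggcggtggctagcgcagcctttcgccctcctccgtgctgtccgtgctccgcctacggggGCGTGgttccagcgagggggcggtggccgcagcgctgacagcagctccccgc
The motif is short and common: 43.8% of all 32851 promoters in the RefSeq table hold it, and 66.8% of the described genes with a listed promoter do. Over the 5 lists of oxygen sensing, HIF targets, glycolysis, pyruvate dehydrogenase and collagen hydroxylation, 31 genes had fallen, and 26 of the 28 with a listed promoter held it. Members of these lists that had not fallen were not counted, so the share cannot be tied to the fall. A match is a description of these letters and not a binding site.

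Of 28 HIF targets outside glycolysis, 15 fell and 2 rose, with a median of log2 -0.70, against 0.01 over all described genes. Adm, the vasodilator adrenomedullin, fell (log2 -2.32 ± 0.29), at implied levels of 66.5 in collagen I and 331 in 2D, in the authors' deposited table. Ak4, a mitochondrial adenylate kinase, stood at -1.54 ± 0.27, and Bnip3, which marks mitochondria for removal, at -1.43 ± 0.29 in the authors' deposited table. Ero1l, an oxidase for disulphide bonds in the endoplasmic reticulum, stood at -1.40 ± 0.23 there. The angiogenic growth factor Vegfa was among the modest falls, log2 -0.76 ± 0.22 in the authors' deposited table, with implied levels of 6668 in collagen I and 11328 in 2D. The stress-induced mTOR inhibitor Ddit4 (-0.95 ± 0.21) and the histone demethylases Kdm4b (-0.99 ± 0.24) and Kdm3a (-0.72 ± 0.24) also fell in the authors' deposited table. The carbonic anhydrase Car9, a common marker of hypoxia, was at -0.65 ± 0.38 there and did not pass.

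The 2 risen members of that list handle iron and haem. The transferrin receptor Tfrc, which brings iron into cells, rose by log2 1.90 ± 0.22 with adjusted p = 4.2e-15 by DESeq2 in the authors' deposited table, at implied levels of 8414 in collagen I and 2250 in 2D. Hmox1, which breaks down haem and is also a target of NRF2, rose by 1.05 ± 0.22 there. Fth1, the heavy chain of the iron store ferritin, had the highest base mean of the 916 risen genes and rose by log2 1.10 ± 0.22, at a base mean of 112210 in the authors' deposited table.

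Of 11 oxygen sensors and HIF subunits, 4 fell and none rose, at a median of log2 -0.13, and no member had an upward change at an unadjusted p under 0.05. Under the empirical null 0 of the 4 passed, with 4 members at an unadjusted p under 0.05. Egln3, a HIF prolyl hydroxylase that HIF itself raises, fell, at log2 -1.64 ± 0.31, and Egln1, the main one in most tissues, at -0.77 ± 0.23 in the authors' deposited table. Cited2, which competes with HIF for its coactivator, fell, at -0.95 ± 0.21, and the subunit gene Hif3a at -1.52 ± 0.41 at a base mean of 36.4, in the authors' deposited table. Hif1a itself was at -0.13 ± 0.23, its partner Arnt at -0.07 ± 0.21 and the ubiquitin ligase gene Vhl at -0.23 ± 0.21 in the authors' deposited table, and none of them passed.

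In glycolysis 5 of 22 genes fell and none rose, at a list median of log2 -0.34. Pfkfb3, which makes the activator of phosphofructokinase, fell, at -1.69 ± 0.20, and the phosphofructokinase subunits Pfkl and Pfkp at -1.13 ± 0.22 and -0.66 ± 0.21, in the authors' deposited table. The glucose transporter Slc2a1 fell, at -0.76 ± 0.22, and the enolase gene Eno2 at -1.47 ± 0.27 there. Other glycolytic enzymes did not pass: Gapdh was at -0.17 ± 0.20, Pkm at -0.06 ± 0.22 and Ldha at -0.33 ± 0.22 in the authors' deposited table. Pdk2, a second pyruvate dehydrogenase kinase, fell, at -0.96 ± 0.31 in the authors' deposited table, while none of the 5 subunits of the enzyme itself passed (Pdha1, Pdhb, Dlat, Dld and Pdhx, at log2 -0.21 to 0.30). No gene of the citrate cycle (17) or of fatty acid oxidation (20) passed by DESeq2, with 2 and 0 at an unadjusted p under 0.05.

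**Figure D2:**
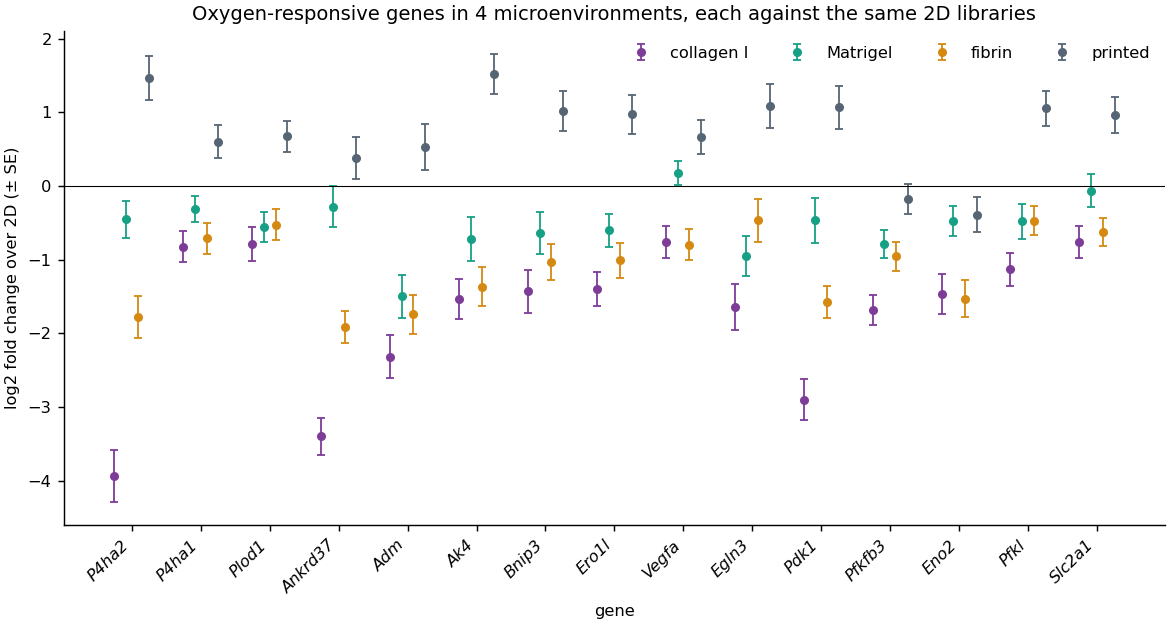
Log2 fold change over 2D (vertical axis, ± the authors' standard error) of 15 oxygen-responsive and collagen-modifying genes (horizontal axis) in collagen I, Matrigel, fibrin and printed cultures. The collagen I points of P4ha2, Ankrd37 and Pdk1 lie below those of the other 3, and the printed points of P4ha2 and Pdk1 lie above 0.

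The table taken as that of the printed cultures is named by the authors for printed collagen, whereas the labels give fibrin with collagen I, and every printed value rests on that reading. The other microenvironments were set against the same 3 libraries in 2D, so their values share that group and are given side by side. P4ha2 was at log2 -3.94 ± 0.36 in collagen I, -0.45 ± 0.26 in Matrigel, -1.78 ± 0.29 in fibrin and 1.46 ± 0.30 in printed cultures, in the authors' deposited tables. Pdk1 was at -2.90 ± 0.28, -0.47 ± 0.30, -1.57 ± 0.22 and 1.07 ± 0.29 in the same order in the authors' deposited tables. The difference between collagen I and each other microenvironment was tested against the root of both squared standard errors, summed (normal, two-sided, Benjamini-Hochberg adjusted per pair). That error counts the shared 2D spread in both terms and is therefore on the large side. Even so, the statistics spread by 0.998 against Matrigel and 1.05 against printed cultures, and only those against fibrin, at 0.583, were clearly narrower than a standard normal. The test called 66 of 13763 genes against Matrigel (0.480%), 74 of 13799 against fibrin (0.536%) and 124 of 13787 against printed cultures (0.899%). In each pair most of these genes were lower in collagen I, namely 58 of the 66, 67 of the 74 and 116 of the 124. Among the 28 HIF targets 11 were lower in collagen I than in printed cultures by that test, 1 than in Matrigel and 1 than in fibrin. The tables' own counts for these 28 were 2 risen and 15 fallen in collagen I, 1 and 1 in Matrigel, 2 and 10 in fibrin and 9 and 0 in printed cultures. Over all described genes with an adjusted p there, 4.20% rose and 2.44% fell in Matrigel, 5.17% and 3.28% in fibrin, and 2.67% and 0.735% in printed cultures.

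Part of the genes that build and modify collagen fell. Of 14 enzymes and chaperones for prolyl and lysyl modification, 5 fell and none rose, and P4ha2 was the 1 that passed under the empirical null. The others were the second prolyl hydroxylase subunit P4ha1 (log2 -0.82 ± 0.21), the lysyl hydroxylase Plod1 (-0.78 ± 0.23) and the prolyl 3-hydroxylases P3h2 (-0.69 ± 0.23) and P3h3 (-1.05 ± 0.29) in the authors' deposited table. The collagen chaperone Serpinh1 was at -0.02 ± 0.20 and the shared beta subunit P4hb at -0.21 ± 0.21 in the authors' deposited table, and neither passed. Of 11 fibrillar collagen genes 5 reached the base mean limit, of which 4 fell. Col1a1, the alpha 1 chain of collagen I, had implied levels of 46.1 in collagen I and 235 in 2D, a 5.10-fold fall (log2 -2.35 ± 0.33, adjusted p = 1.6e-10 by DESeq2 in the authors' deposited table). Its partner chain Col1a2 had a base mean of 0.324 there. Col11a2 at -2.23 ± 0.30, Col5a1 at -1.92 ± 0.30 and Col5a2 at -1.26 ± 0.40 also fell in the authors' deposited table, and Col27a1 at 0.45 ± 0.27 did not pass. The cross-linking enzymes Loxl1 (-1.06 ± 0.24) and Tgm2 (-0.98 ± 0.23) fell, while Pcolce, which speeds up removal of the collagen propeptide, rose by 0.69 ± 0.20 in the authors' deposited table.

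Of 7 collagen receptor genes described, only the integrin subunit Itga2 fell (log2 -1.15 ± 0.33, adjusted p = 0.0077 by DESeq2 in the authors' deposited table). Its partner Itgb1, the collagen-binding Itga1 and the discoidin receptors Ddr1 and Ddr2 lay between -0.43 and -0.23 there and did not pass. Of 23 focal adhesion proteins 1 fell, a share near the 4.70% over all described genes. It was the talin gene Tln2, at -1.78 ± 0.22 in the authors' deposited table, while Tln1 was at -0.19 ± 0.20.

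The basement membrane, the sheet of matrix on which a tubule cell normally rests, had 8 of 24 genes fallen and 1 risen. Lamb3 (-1.61 ± 0.25) and Lama3 (-1.19 ± 0.26), chains of an epithelial laminin, fell, as did the collagen IV chain Col4a5 (-1.32 ± 0.25) in the authors' deposited table. The abundant laminin gene Lama5 fell, at -0.81 ± 0.23, at implied levels of 15926 in collagen I and 27895 in 2D, in the authors' deposited table. Nidogen 1, Nid1, which links laminin to collagen IV, rose by 0.94 ± 0.22 there. Of 26 matrix proteases and inhibitors 8 fell and none rose, of which Adam12, Mmp2, Timp3 and Mmp28 lay lowest, at log2 -1.48 to -1.42 in the authors' deposited table. Centred within bins of length and GC content, the proteases and inhibitors had 5 lower and 3 higher, namely Mmp15, Adamts7 and Adamts9. Plasminogen activation had 3 of 11 genes risen and none fallen, and 0 passed under the empirical null (3 unadjusted). The activator Plat (0.92 ± 0.21), the urokinase receptor Plaur (1.22 ± 0.24) and the protein C receptor Procr (0.95 ± 0.26) rose in the authors' deposited table.

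Cell division genes rose together. The replication and S phase list had 40 of 44 genes risen and none fallen, with a median of log2 1.13 and a range of 0.19 to 2.00. Rrm2, the regulated subunit of ribonucleotide reductase (chromosome 12, 24708254 to 24714146, GRCm38), had implied levels of 10001 in collagen I and 2494 in 2D. It rose 4.01-fold (log2 2.00 ± 0.26, adjusted p = 3.4e-12 by DESeq2 in the authors' deposited table). The S phase cyclin Ccne2 rose by 1.93 ± 0.34, the origin licensing factor Cdc6 by 1.80 ± 0.30 and the sliding clamp Pcna by 1.39 ± 0.24 in the authors' deposited table. The helicase subunits Mcm4 and Mcm5 rose by 1.33 ± 0.24 and 1.46 ± 0.27 there. Of 34 genes of G2 and mitosis 24 rose and none fell, at a median of 0.94, with highest values for the checkpoint gene Mad2l1 (1.81 ± 0.24) and the ubiquitin conjugase Ube2c (1.45 ± 0.26) in the authors' deposited table. Cyclin D1, Ccnd1, rose by 0.85 ± 0.25, and the inhibitor Cdkn1c fell, at -1.58 ± 0.39 at a base mean of 57.4, in the authors' deposited table. Under the empirical null 6 of the 40 replication genes and 1 of the 24 mitotic genes still passed. The rise was shared: over the same 2D libraries 25 of the 44 replication genes rose in Matrigel, 38 in fibrin and 17 in printed cultures. For the 34 mitotic genes the numbers were 9, 23 and 11, and no gene of either list fell there. By the test of the difference none of them differed between collagen I and another microenvironment.

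E2F factors drive S phase genes, and their recognition sequence appears in some of these promoters. Promoters of Cdc6 at chr11:98907901-98908200 (plus strand), Mcm5 at chr8:75109259-75109558 (plus strand) and Mcm6 at chr1:128359656-128359955 (minus strand) are printed as above. They were taken as the risen replication genes of the highest Wald statistic among those with a match. Capitals mark TTTCCCGC, TTTCGCGC, TTTGCCGC or TTTGGCGC on either strand, and overlapping matches run into 1 stretch.
Cdc6: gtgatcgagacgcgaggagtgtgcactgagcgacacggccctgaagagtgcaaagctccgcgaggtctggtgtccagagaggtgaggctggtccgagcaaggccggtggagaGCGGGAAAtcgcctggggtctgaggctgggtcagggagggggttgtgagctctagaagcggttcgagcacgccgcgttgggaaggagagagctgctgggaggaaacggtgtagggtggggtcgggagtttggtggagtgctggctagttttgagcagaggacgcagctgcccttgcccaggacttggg
Mcm5: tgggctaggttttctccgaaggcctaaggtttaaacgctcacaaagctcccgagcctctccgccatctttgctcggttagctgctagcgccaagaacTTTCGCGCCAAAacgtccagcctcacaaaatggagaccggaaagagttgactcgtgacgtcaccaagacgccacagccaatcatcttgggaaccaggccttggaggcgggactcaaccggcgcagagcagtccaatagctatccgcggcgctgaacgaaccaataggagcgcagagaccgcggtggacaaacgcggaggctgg
Mcm6: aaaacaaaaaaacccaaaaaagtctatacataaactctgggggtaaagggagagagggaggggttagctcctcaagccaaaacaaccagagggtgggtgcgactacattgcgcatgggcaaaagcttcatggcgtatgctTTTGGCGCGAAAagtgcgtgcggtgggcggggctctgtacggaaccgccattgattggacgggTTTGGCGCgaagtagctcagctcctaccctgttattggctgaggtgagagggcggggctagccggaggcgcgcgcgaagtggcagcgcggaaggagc
Of the 40 risen replication genes 32 had a listed promoter and 16 of these held the motif. Of the risen mitotic genes 1 of 21 did. It is in 2.26% of all promoters in the table and in 4.63% of the described genes with one. Members of both lists that had not risen were not counted, so these shares cannot be tied to the rise.

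Sterol synthesis rose as a group. Cells make cholesterol from acetyl-CoA through the mevalonate pathway, whose genes SREBP2 raises when membrane sterol is low. Of 25 genes 16 rose and none fell, with a median of log2 0.80. Over the same 2D libraries 8 of the 25 rose in Matrigel, 14 in fibrin and 10 in printed cultures, and none fell. By the test of the difference none differed between collagen I and another microenvironment. Idi1, which isomerizes isopentenyl diphosphate (chromosome 13, 8885606 to 8892396, GRCm38), had implied levels of 2375 in collagen I and 438 in 2D, a 5.42-fold rise (log2 2.44 ± 0.25, adjusted p = 5.9e-19 by DESeq2 in the authors' deposited table). Insig1, a sterol-sensing brake that is itself an SREBP target, rose by 1.33 ± 0.22 and Hmgcs1 at the start of the pathway by 1.25 ± 0.20 in the authors' deposited table. Fatty acid synthesis had 4 of 20 risen, among them the fatty acid elongase Elovl6 at 0.87 ± 0.22 and the carbohydrate-responsive factor Mlxipl at 0.94 ± 0.20 in the authors' deposited table. Of 7 LXR targets and sterol exporters 1 rose and 1 fell: the exporter Abcg1 rose by 1.08 ± 0.37 at a base mean of 71.5, and the exporter Abca1 fell, at -0.70 ± 0.24, in the authors' deposited table. When centred within bins of exon length and GC content, as described with the trend over length, Abca1 was at -0.44 and was not called.

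Targets of the transcription factor NRF2 also rose. NRF2 is held down by KEAP1 until oxidants or electrophiles release it, and its targets make glutathione and NADPH. Of 26 such genes 14 rose and none fell, at a median of log2 0.82. Over the same 2D libraries 17 of the 26 rose in Matrigel, 7 in fibrin and 10 in printed cultures, and none fell. By the test of the difference 1 was lower in collagen I than in Matrigel and 2 were higher than in fibrin. Nqo1, a quinone reductase and standard NRF2 marker (chromosome 8, 107388225 to 107403205, GRCm38), had implied levels of 26639 in collagen I and 5080 in 2D. It rose 5.24-fold (log2 2.39 ± 0.23, adjusted p = 1.0e-21 by DESeq2 in the authors' deposited table). The glutathione transferases Gsta4 (2.50 ± 0.25) and Gsta1 (2.45 ± 0.40, base mean 93.3) rose in the authors' deposited table. The Gsta genes are close copies of each other, so reads may be shared among them. The pentose phosphate enzyme G6pdx rose by 1.31 ± 0.20, sulfiredoxin Srxn1 by 1.35 ± 0.22 and thioredoxin reductase Txnrd1 by 0.96 ± 0.20 in the authors' deposited table. The cystine carrier Slc7a11, a well known target, was at -0.28 ± 0.34 there and did not pass, nor did the NRF2 gene Nfe2l2 itself at 0.23 ± 0.20.

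Srxn1 and Prdx1 are the risen genes of that list whose promoters hold the antioxidant response element, searched as TGACTCAGC or TGAGTCAGC on either strand and marked in capitals. Srxn1 lies at chr2:152105274-152105573 and Prdx1, a peroxide reductase that rose by log2 1.19 ± 0.26 in the authors' deposited table, at chr4:116685349-116685648, both on the plus strand.
Srxn1: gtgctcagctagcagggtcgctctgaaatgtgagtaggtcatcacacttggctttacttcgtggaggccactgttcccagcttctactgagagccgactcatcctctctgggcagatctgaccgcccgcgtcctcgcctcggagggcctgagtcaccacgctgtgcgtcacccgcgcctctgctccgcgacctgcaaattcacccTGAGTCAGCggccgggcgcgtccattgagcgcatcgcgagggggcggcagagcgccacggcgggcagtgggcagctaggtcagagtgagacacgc
Prdx1: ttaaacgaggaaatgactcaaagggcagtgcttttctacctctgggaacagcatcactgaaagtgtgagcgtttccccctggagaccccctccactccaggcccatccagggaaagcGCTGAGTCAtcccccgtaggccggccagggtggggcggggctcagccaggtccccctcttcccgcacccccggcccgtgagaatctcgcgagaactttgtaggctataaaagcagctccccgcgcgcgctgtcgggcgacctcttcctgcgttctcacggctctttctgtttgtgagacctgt
In all, 2 of the 10 risen genes with a listed promoter held it, against 0.822% of all promoters and 1.0% of the described genes. Such elements can also lie outside this window, which was not searched. Members of that list that had not risen were not counted.

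**Figure D3:**
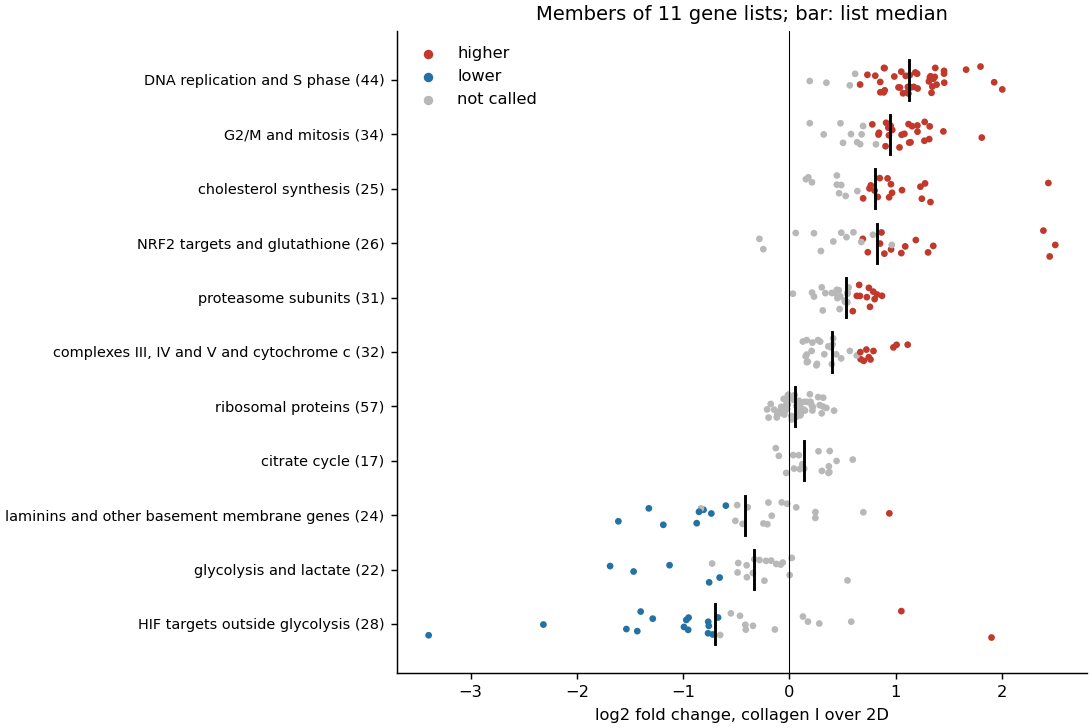
Log2 fold change of collagen I over 2D (horizontal axis) of every described member of 11 gene lists (rows, number of members in brackets), red where the gene rose, blue where it fell and grey where it was not called, with the list median as a black bar. All 44 replication genes lie above 0, ribosomal proteins centre on 0.05 and HIF targets on -0.70.

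Proteasome genes and genes of respiratory complexes III to V rose in part, and fold changes across genes were lower at longer exon length. Of 31 proteasome subunits 11 rose, at a median of log2 0.53, such as Psma5 at 0.87 ± 0.23 and Psmc6 at 0.82 ± 0.24 in the authors' deposited table. Respiratory complexes III to V and cytochrome c had 10 of 32 genes risen, such as Cox7b at 1.11 ± 0.23 and Atp5k at 1.01 ± 0.23 there. Complex I had 2 of 36 risen, a share no higher than the 6.60% over all described genes. None of the 12 described protein-coding genes of the mitochondrial genome passed (log2 -0.52 to 0.62). They were not uniform: ND1 was at 0.61 ± 0.22 (adjusted p = 0.057 by DESeq2) and ND5 at -0.52 ± 0.22 in the authors' deposited table. Both mitochondrial ribosomal RNAs rose, mt-Rnr2 by 0.87 ± 0.23 and mt-Rnr1 by 0.72 ± 0.23 in the authors' deposited table. Risen genes had a median exon length of 2483 bases and fallen genes 4395 bases, against 3301 for genes that were not called, and median GC contents of 46.9%, 52.5% and 50.1%. Among 10 bins of genes by length, 13.0% rose and 1.71% fell in the shortest, and in the longest 2.26% rose and 9.81% fell. Spearman's rho of the fold change was -0.26 with length and -0.21 with GC content across 12841 genes, which are not independent replicates. In the other tables these were -0.15 and 0.19 for Matrigel, -0.18 and -0.16 for fibrin, and 0.07 and -0.06 for printed cultures.

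**Figure D4:**
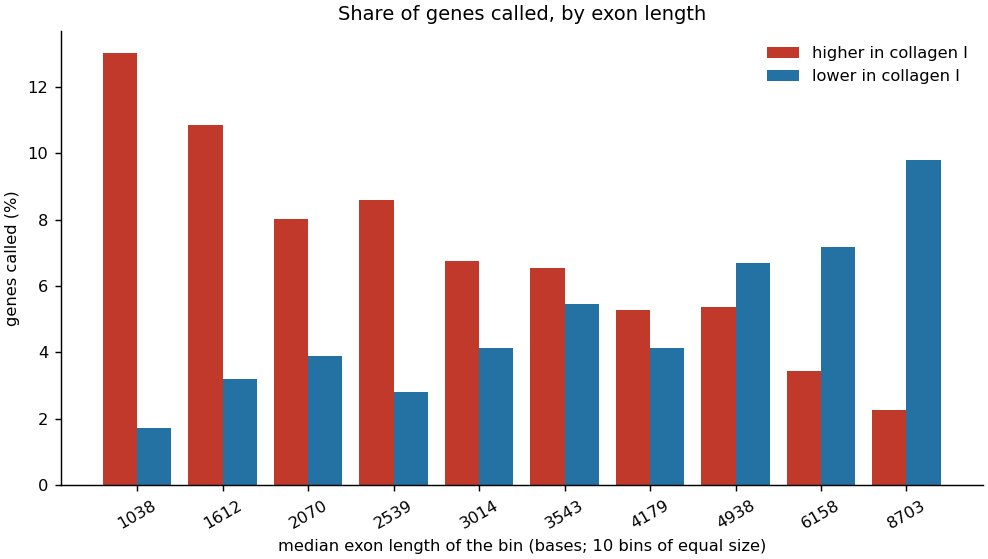
Share of genes that rose (red) or fell (blue) in collagen I against 2D (vertical axis, %) in 10 bins of genes by exon length, labelled with the bin's median length in bases (horizontal axis). The risen share is 13.0% in the shortest bin and 2.26% in the longest, and the fallen share is 1.71% and 9.81%.

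An alternative chosen after this trend was seen centred the fold changes within bins of length and GC content. It left 662 genes higher (4.77%) and 519 lower (3.74%), 1039 of them called in the same direction as before. The proteasome count became 2 of 31, complexes III to V became 2 of 32 and complex I 0 of 36, whose median exon lengths were 1581, 961 and 1015 bases. For complex I, 7 members had an unadjusted p under 0.05 in the authors' deposited table. Among long genes the fallen basement membrane genes became 4 of 24 and the fallen integrins other than collagen receptors 1 of 13, where 4 had fallen. In the lists described earlier, HIF targets had 14 lower, replication 38 higher, mitosis 18 higher, sterol synthesis 16 higher and NRF2 targets 12 higher, against 15, 40, 24, 16 and 14 in the authors' deposited table. Of the fallen genes named in the text, Abca1, Adam12, Col5a2, Dsg2, Egln1, Evpl, Glis3, Igf1r, Krt80, Lama5, P3h2, Pfkp and Wnt5a were no longer called there, at centred log2 values of -1.19 to -0.39. Of the risen ones Krt20, Psma5 and Psmc6 were not, at 0.52 to 0.55. Whether length or GC content plays a part in single genes was not tested. Ribosomal proteins, with a median exon length of 1101 bases, had none of 57 called by DESeq2 and 0 at an unadjusted p under 0.05, at a median of log2 0.05.

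Kidney tubule genes moved in both directions. Of 26 proximal tubule markers 4 rose and 4 fell, and 13 more lay under the base mean limit. Tmem27, the partner of amino acid transporters of the brush border, had implied levels of 2529 in collagen I and 345 in 2D, and Kap, the androgen-regulated kidney protein, 1899 in collagen I and 261 in 2D. They rose by log2 2.87 ± 0.23 and 2.86 ± 0.27 in the authors' deposited table. The brush border peptidase Anpep fell, at -2.46 ± 0.35, at implied levels of 33.6 in collagen I and 185 in 2D, in the authors' deposited table. The endocytic receptors Lrp2 (0.08 ± 0.21) and Cubn (0.01 ± 0.24) did not pass in the authors' deposited table. Of 13 measured markers of the loop, distal tubule and collecting duct 3 fell, the sodium channel subunits Scnn1a (-1.45 ± 0.33) and Scnn1g (-1.20 ± 0.41) and the thiazide-sensitive cotransporter Slc12a3 (-1.47 ± 0.41), at base means of 122, 41.9 and 40.2 in the authors' deposited table. Of 22 endogenous kidney transcription factors 5 fell and none rose, with 0 under the empirical null (5 unadjusted), among them Lhx1 at -1.16 ± 0.27 and Irx2 at -1.07 ± 0.30 there. In cystic kidney disease and the cilium 3 of 33 genes fell and 0 rose, where 11.3% of all described genes were called and 4.70% fell. Under the empirical null 0 of them passed (2 unadjusted). They were Pkhd1, the gene of recessive polycystic disease, at -1.05 ± 0.23, Invs at -0.91 ± 0.26 and Glis3 at -0.69 ± 0.23 in the authors' deposited table.

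Of 22 claudins and tight junction genes 1 fell, a share near the 4.70% over all described genes. This was Cldn1, at implied levels of 794 in collagen I and 3146 in 2D (log2 -1.99 ± 0.21, adjusted p = 6.6e-18 by DESeq2 in the authors' deposited table). The proximal tubule claudin Cldn2 was at 0.03 ± 0.27 there. Of 19 cadherins and protocadherins 2 rose and 5 fell. The protocadherins Pcdh10, at implied levels of 2248 in collagen I and 297 in 2D, and Pcdh19 rose by 2.92 ± 0.23 and 0.96 ± 0.31 in the authors' deposited table. The mesenchymal Cdh11 fell, at -1.92 ± 0.31, as did the epithelial Cdh3 at -1.15 ± 0.22 and the kidney cadherin Cdh6 at -1.13 ± 0.26 in the authors' deposited table. The desmosomal cadherins Dsc2 (-1.02 ± 0.32) and Dsg2 (-0.66 ± 0.22) also fell there. Of 10 keratins 2 rose and 2 fell. The basal keratin Krt5 rose by 2.07 ± 0.25 and Krt20 by 0.67 ± 0.23, while the simple epithelial Krt8 fell, at -0.92 ± 0.28, and Krt80 at -0.93 ± 0.32 in the authors' deposited table. The simple epithelial Krt18 and Krt19 were at 0.17 ± 0.20 and -0.14 ± 0.21 there and did not pass. Of 11 cornified envelope genes 2 rose and 1 fell. Scel (2.95 ± 0.33), which stiffens the cornified envelope of skin, and Sprr2h (2.90 ± 0.31) rose, and envoplakin, Evpl, fell, at -1.37 ± 0.42 at a base mean of 23.8, in the authors' deposited table. Sprr2 genes are near copies, so the value of Sprr2h is uncertain. The 7 squamous markers had summed implied levels of 5840 in collagen I and 1519 in 2D, with Krt6a listed at 0 and Krt14 and Trp63 under the limit. Most of that sum came from 1 marker, with a base mean of 3249 out of 3679 for all 7, and 2 of them rose. The part of these markers in other results was not tested.

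Of 20 mesenchymal genes 6 fell and 3 rose. Fibronectin, Fn1, fell, at log2 -1.73 ± 0.26 at implied levels of 2425 in collagen I and 8018 in 2D, with Fbn1 at -1.16 ± 0.26 and the transcription factor Snai2 at -1.26 ± 0.35 in the authors' deposited table. Twist2 and S100a4 rose, by 1.30 ± 0.21 and 1.49 ± 0.30 there. Of 11 smooth muscle and pericyte markers 6 reached the base mean limit and Rgs5 was listed at 0. All 6 were lower in collagen I, at a median of log2 -0.86 and each at an unadjusted p under 0.05, and 1 passed, the adhesion molecule Mcam at -0.92 ± 0.29 in the authors' deposited table. Their summed implied level was 1527 in collagen I and 2780 in 2D, and their part in the values of the mesenchymal genes was not tested. TGF-beta genes had 3 of 24 fallen, Fn1 among them, with the ligand Tgfb2 at -1.63 ± 0.26 in the authors' deposited table. YAP targets had 3 of 27 fallen and none risen, and Cyr61 and Ctgf, their classical reporters, were not among them. Actin-linked genes split, with 2 of 26 risen and 3 fallen: Actb, beta-actin, rose by 0.79 ± 0.21 and caldesmon, Cald1, fell, at -1.65 ± 0.21 in the authors' deposited table.

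Growth factor signalling genes changed in part. Of 29 immediate early and ERK feedback genes 6 rose and 2 fell. The feedback inhibitor Spry4 rose by log2 1.12 ± 0.32, the ETS factors Etv1 and Etv4 by 1.36 ± 0.38 and 0.82 ± 0.27, and Egr1 by 0.95 ± 0.29 in the authors' deposited table. Jun and Atf3 fell, at -0.66 ± 0.21 and -0.72 ± 0.25 there. Receptors split: Egfr fell, at -0.97 ± 0.25 and Igf1r at -0.69 ± 0.21, whereas Fgfr4 rose by 0.81 ± 0.22 in the authors' deposited table. In the WNT group the receptor Lgr5 (1.93 ± 0.38, base mean 58.6) and the nuclear effector Lef1 (1.48 ± 0.36) rose, and the ligands Wnt7a (-1.46 ± 0.34) and Wnt5a (-0.83 ± 0.25) fell in the authors' deposited table. The BMP targets Id1 and Id2 rose by 1.20 ± 0.24 and 1.01 ± 0.26, and the ligand Bmp6 fell, at -0.82 ± 0.24 there.

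The highest fold change of all called genes was that of Icos, a receptor by which T cells are costimulated. It had implied levels of 656 in collagen I and 78.6 in 2D, an 8.34-fold rise (log2 3.06 ± 0.30, adjusted p = 7.8e-21 by DESeq2 in the authors' deposited table). Of 8 T cell markers, Cd3e, Cd3d and Cd4 were listed at 0 and only Icos and Lck exceeded the base mean limit. The 8 had a summed implied level of 1095 in collagen I and 710 in 2D. Icos was the only one of them called, and without Icos the sum was lower in collagen I than in 2D. The part of other cells in the value of Icos was not tested. The costimulatory ligand Cd80 rose by 1.70 ± 0.36, and the checkpoint ligand Cd274 fell, at -1.01 ± 0.29, in the authors' deposited table. Among 30 cytokines and NF-kB targets 3 rose and none fell, the alarmin Il33 by 1.78 ± 0.30, the interleukin 1 antagonist Il1rn by 1.26 ± 0.30 and Il1b by 1.44 ± 0.42 at a base mean of 25.4 in the authors' deposited table. Of 29 interferon response genes 3 fell, Xaf1, Rsad2 and Ifit1, at -1.34 to -1.22 in the authors' deposited table. That list had a median of log2 -0.50, with 12 members lower and 1 higher at an unadjusted p under 0.05. Under the empirical null 0 passed. Lcn2, the injury marker lipocalin 2, fell, at -1.55 ± 0.41 in the authors' deposited table, where the 2D level of the other 3 tables implies -2.97. Such markers did not fall as a group: among 24 for injured tubule or progenitor cells, 2 rose and 3 fell. Their median was log2 0.004, with 12 values above 0 and 12 below.

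Changes were also found among the genes of highest base mean. The calcium-binding S100a6 rose by log2 1.23 ± 0.22, at implied levels of 63702 in collagen I and 27095 in 2D, and the galectin Lgals1 by 0.87 ± 0.23 in the authors' deposited table. The adhesion receptor Adgrg1 fell, at -1.27 ± 0.20, at implied levels of 10372 in collagen I and 25072 in 2D, and the phospholipid flippase Atp11a at -1.11 ± 0.22 in the authors' deposited table. Clusterin, Clu, a secreted chaperone raised in tubular injury, fell, at -0.69 ± 0.22, at implied levels of 119880 in collagen I and 193211 in 2D, in the authors' deposited table.

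**Figure D5:**
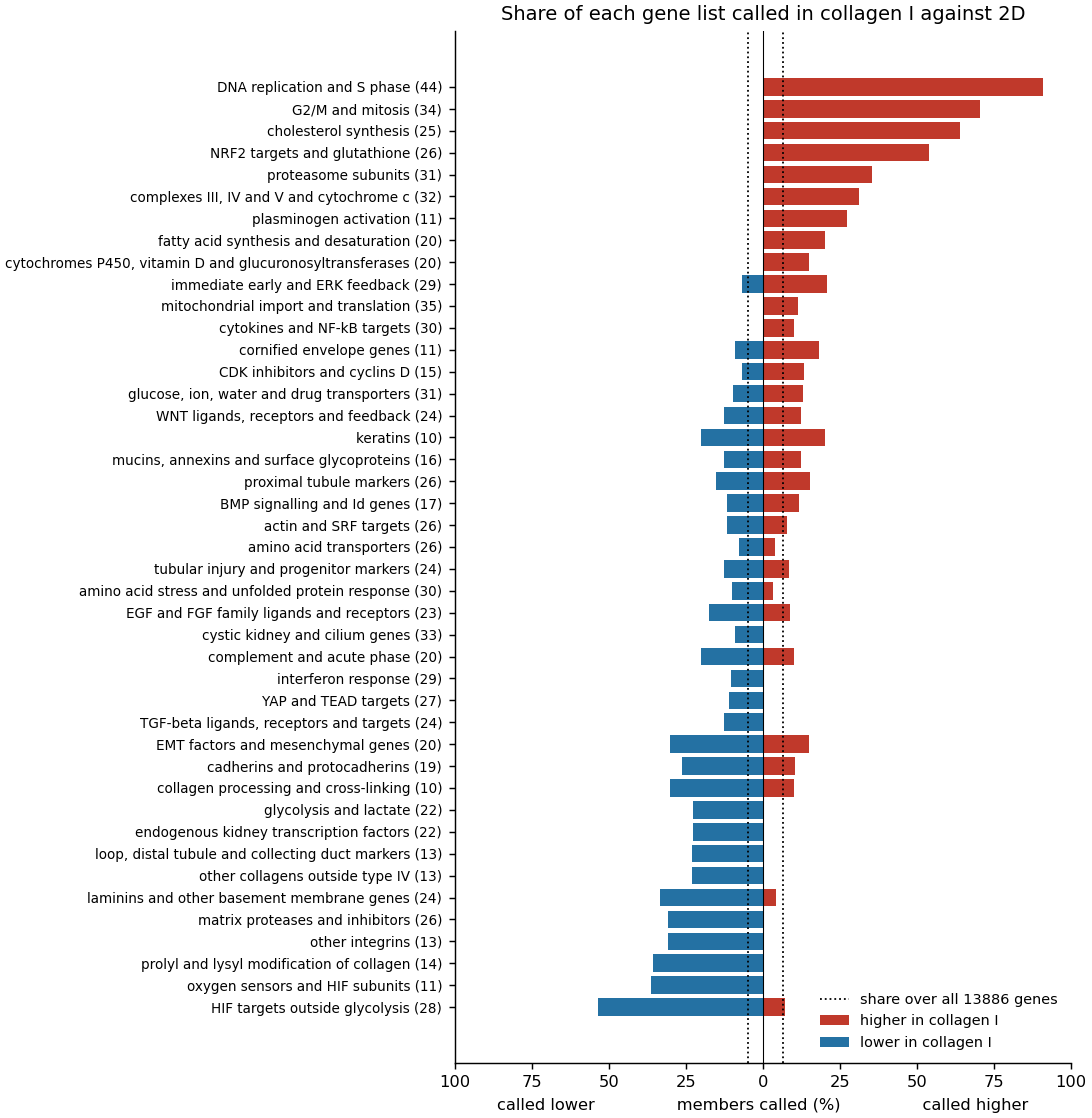
Share of members that rose (red, to the right) or fell (blue, to the left) in collagen I against 2D (horizontal axis, %) for the lists with 10 or more described members and 3 or more called (rows, members in brackets), with dotted lines at the shares over all 13886 genes, 6.60% and 4.70%. Replication, mitosis, sterol synthesis and NRF2 targets extend farthest to the right, and HIF targets farthest to the left.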

How the data were processed

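The submitters' processing notes name DESeq2 1.22.1, featureCounts 1.6.3, the aligner STAR 2.6.0b-1, Trim Galore 0.4.3 and FastQC 0.72, with genome mm10. For annotation, strand setting and model terms, nothing was given in the sources used here. The deposited base mean is a signal, the authors' mean of normalized read counts. The deposited fold change and standard error are log2 values by the authors, and the fold changes were taken as shrunken. Some fold changes differ from those that the base means of the 4 tables imply, and the part of shrinkage in this was not tested. The deposited Wald statistic is a score, with the authors' p-value and adjusted p-value beside it. The 4 tables hold 0 columns of values per sample, so nothing was refitted. Implied levels solve base mean and fold change for both groups. Alternatives used Python 3.11.15, numpy and scipy. The empirical null scales Wald statistics by their own median and interquartile range. Exon lengths and GC content come from GENCODE M21 and covered 92.5% of the genes. Genes were named by rule: the 20 highest and lowest called genes at a base mean of 100 or more, 10 each below it, 10 most abundant called genes per direction, and per list up to 8 members by Wald statistic, and all members of lists of 10 or fewer and of the hypoxia, collagen modification, collagen receptor and introduced factor lists. Members and 66 lists were chosen with earlier results of these data known. Procedures were tested on simulated data. Some genes are not reported here.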

Additional observations from a re-analysis of the deposited data

Results flagged for a closer look

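Of the called genes, 6 fell in collagen I and were lower there than in each of the other 3 microenvironments by the test of the difference. All 4 comparisons share the 2D libraries. P4ha2 stood at log2 -3.94 in collagen I, -0.45 in Matrigel, -1.78 in fibrin and 1.46 in printed cultures, in the authors' deposited tables. Ankrd37 was at -3.40, -0.28, -1.91 and 0.38 in the same order. Pdk1 was at -2.90, -0.47, -1.57 and 1.07. Adgra1, an adhesion G protein-coupled receptor, was at -2.33, -0.59, 1.40 and -0.45. Muc20, a membrane mucin, was at -2.12, 0.06, 2.08 and 1.10, with a base mean of 64.5 in the collagen I table. Rcsd1, an actin-capping partner, was at -1.79, 0.04, 0.10 and -0.13. Adgra1, Muc20 and Rcsd1 were singled out after their values were seen. For Rcsd1 the adjusted p of the difference was 9.6e-05 against Matrigel, 0.00017 against fibrin and 0.0095 against printed cultures. The differences of Pdk1 and Ankrd37 from fibrin were the smallest of these, log2 -1.33 ± 0.35 with adjusted p = 0.036 and -1.48 ± 0.33 with adjusted p = 0.0024.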

How the results depend on the processing

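No paired analysis was possible because the tables hold no values per library, and for the same reason no replicate could be left out. Under the empirical null 142 genes passed, 62 higher and 80 lower. At an adjusted p under 0.01, 887 passed (536 and 351), and with a log2 fold of 1 or more 716 (379 and 337). The empirical null left 5 HIF targets, 0 of complexes III to V (6 at an unadjusted p under 0.05), 1 basement membrane gene, 2 matrix proteases, 0 ERK feedback genes (4 unadjusted), 6 replication genes, 1 mitotic gene, 0 proteasome genes (7 unadjusted), 3 sterol synthesis genes, 5 NRF2 targets, 3 proximal tubule markers and 3 mesenchymal genes. It also left 0 oxygen sensors and HIF subunits, 0 endogenous kidney transcription factors, 0 genes of plasminogen activation (4, 5 and 3 unadjusted) and 1 of collagen modification. It raised the differences from fibrin to 509, where the statistic's own spread was 0.583. Centring within length and GC bins, an alternative chosen after seeing the data, left 2 genes of complexes III to V, 5 basement membrane genes and 2 proteasome genes. Of 296 named and called genes, 241 were called there in the same direction and 81 under the empirical null. Adjustment over the members alone, no base mean minimum, a minimum of 100 and re-centring on the median left the total counts within 1.5 times. The cause of the wide spread of Wald statistics was not tested.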

Other observations

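Over all described genes 11.3% were called, the share against which the counts here are to be read. Of 26 amino acid transporters 1 rose and 2 fell, and the glutamate carrier Slc1a3 rose by log2 1.53 ± 0.38 while the glutamine carrier Slc38a3 fell, at -1.42 ± 0.30 in the authors' deposited table. Cytochromes P450, vitamin D genes and glucuronosyltransferases had 3 of 20 risen and none fallen, the vitamin D hydroxylase Cyp24a1 by 1.97 ± 0.37 (base mean 78.6), the glucuronosyltransferase Ugt1a7c by 2.56 ± 0.28 and the sulphate donor synthase Papss2 by 1.91 ± 0.37 in the authors' deposited table. Ugt1a genes share exons and its value is uncertain. Amino acid stress and the unfolded protein response had 1 of 30 genes risen and 3 fallen, with Ddit3 at -1.01 ± 0.21 and Trib3 at -0.98 ± 0.24 in the authors' deposited table. No Hox gene of 20 measured passed by DESeq2, with 1 at an unadjusted p under 0.05.

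A few low genes stood out after their values were seen. Alb, serum albumin, and Trf, the iron carrier transferrin, rose in collagen I by log2 2.17 ± 0.42 and 1.90 ± 0.41 in the authors' deposited table, at base means of 31.1 and 22.7. Their base means were 1.35 and 0.328 in the Matrigel table, 2.79 and 5.04 in the fibrin table and 2.31 and 0.333 in the printed table of the authors' deposited tables. With the 2D level taken from the other 3 tables, the implied log2 fold changes were 4.77 for Alb and 7.12 for Trf. P2rx3, an ATP-gated channel, was at -2.50 ± 0.33 in collagen I, 1.51 ± 0.18 in Matrigel, -2.55 ± 0.25 in fibrin and 0.91 ± 0.27 in printed cultures in the authors' deposited tables. Its difference between collagen I and Matrigel was log2 -4.01 ± 0.37, with adjusted p = 1.1e-22. Serpinf1, an antiangiogenic serpin, did not pass in collagen I (-0.91 ± 0.41), yet was lower there than in each other microenvironment, with adjusted p of 1.6e-05 against Matrigel, 0.0086 against fibrin and 0.027 against printed cultures. Respiratory chain genes that most cells use were listed near 0: Uqcr11 had a base mean of 0, Sdhd of 1.57 and Cox7a2 of 5.34 in the authors' deposited table.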
